A study of Mus musculus with 6 samples.

Results

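Toll-like receptors sense microbial lipids, proteins and nucleic acids, and 8 of their genes were examined together with the co-receptor gene Cd14 and the adaptor gene Myd88. The 10 genes were chosen by symbol from the 22899 genes listed for each library, and all 10 were found. The libraries were made from CD4+ T cells of the spleen, which are helper T lymphocytes, sorted by flow cytometry from mice of the C57BL/6 strain. The obese group (3 libraries) came from mice on a high-fat diet with 60 kcal% fat, and the lean group (3 libraries) from mice on a normal diet. Diets generally began at 6 to 8 weeks of age and lasted for up to 4 months, and no sex, no mouse number per library and no further treatment is given in the labels. Values are FPKM, a count of fragments per gene scaled to transcript length and library total, so levels can be set side by side between genes. The depth behind a value is unknown, as counts were not used here, and error is given as the spread between libraries, which may be technical.

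As background, receptors at the cell surface bind lipids and proteins, while those in endosomes bind RNA or DNA. Tlr2 pairs with Tlr1 or Tlr6 to bind bacterial lipopeptides, and Tlr4 binds lipopolysaccharide with the help of Cd14. In mice Tlr7 responds to RNA and its breakdown products, Tlr9 to DNA with unmethylated CpG and Tlr13 to bacterial ribosomal RNA. Myd88 links all of these receptors, and also those for interleukin-1 and interleukin-18, to kinases that activate NF-kB. The receptors are best known from macrophages, neutrophils, dendritic cells and B cells, and some are also transcribed in T cells.

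The libraries carried the helper T cell transcripts that the label predicts, and in every library transcripts of other cells too. Cd4 lay between 279.31 and 325.32 FPKM in obese and between 323.77 and 362.61 FPKM in lean libraries, and Cd3e, of the T cell receptor complex, between 346.2 and 454.87 FPKM over all 6. None of 12 T cell markers passed the limma test used below, and none had an unadjusted p under 0.05. Of 20 markers of monocytes and macrophages, 18 rose and none fell, and their summed FPKM was 2000 to 2189 in obese and 1014 to 1128 in lean libraries. None of these markers was at 0, and C1qa, C1qb and C1qc were at 56.03 FPKM or more in each library. Of 14 neutrophil markers 7 fell and none rose (summed FPKM 174.6 to 480.1 in obese, 617.8 to 900.7 in lean), a count of 4 without obese 1 or obese 2 and of 1 without lean 1 or lean 2. None of 12 B cell markers passed in limma (3 at an unadjusted p under 0.05; summed FPKM 575.7 to 1099 in obese, 400.5 to 861.7 in lean), nor did any of 8 markers of plasmacytoid dendritic cells (4 at an unadjusted p under 0.05, and 1 called without lean 3; 109.2 to 115.9 in obese, 118.0 to 135.6 in lean). Of 12 tested erythroid markers 11 rose, and their summed FPKM, 4375 to 29080 in obese and 184.6 to 483.3 in lean libraries, was lowest among obese libraries in obese 2. Of 7 plasma cell markers 2 rose (0 to 5 with 1 library left out) and of 9 natural killer cell markers 3 fell (1 to 4). None of 6 tested dendritic cell markers passed in limma (1 at an unadjusted p under 0.05, and 1 called without obese 1), nor did either of the 2 markers of cytotoxic T cells (0 at an unadjusted p under 0.05). Fewer cells of a type and less RNA per cell cannot be told apart in such bulk libraries, and the part of other cells in the differences below was not tested.

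Promoters are shown for 3 receptors that rose and for Myd88, which did not pass, because the sign of the difference was not the same in all members. They are RefSeq sequences of assembly GRCm38.p6, the 250 bases before a start in RefSeq's promoter table, 5′ to 3′ on the gene's own strand. The windows of Tlr13, Tlr8 and Myd88 end next to the gene spans given below, whereas that of Tlr2 belongs to a start inside the span, which holds 216 of its 250 bases. Capitals mark GAGGAA or its reverse complement TTCCTC, the purine-rich core bound by PU.1, a transcription factor of myeloid and B cells. They come from chrX:106143025-106143274 (plus strand) for Tlr13, chrX:167264330-167264579 (minus) for Tlr8, chr3:83841609-83841858 (minus) for Tlr2 and chr9:119340019-119340268 (minus) for Myd88.
Tlr13: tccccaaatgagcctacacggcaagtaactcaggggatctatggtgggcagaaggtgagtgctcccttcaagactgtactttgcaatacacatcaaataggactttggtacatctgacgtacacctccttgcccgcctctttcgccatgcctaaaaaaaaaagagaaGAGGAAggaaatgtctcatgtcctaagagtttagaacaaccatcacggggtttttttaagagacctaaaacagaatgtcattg
Tlr8: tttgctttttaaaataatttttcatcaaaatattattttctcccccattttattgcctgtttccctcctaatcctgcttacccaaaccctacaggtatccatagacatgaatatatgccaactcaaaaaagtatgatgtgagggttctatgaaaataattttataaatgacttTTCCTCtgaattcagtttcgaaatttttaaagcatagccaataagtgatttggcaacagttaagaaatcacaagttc
Tlr2: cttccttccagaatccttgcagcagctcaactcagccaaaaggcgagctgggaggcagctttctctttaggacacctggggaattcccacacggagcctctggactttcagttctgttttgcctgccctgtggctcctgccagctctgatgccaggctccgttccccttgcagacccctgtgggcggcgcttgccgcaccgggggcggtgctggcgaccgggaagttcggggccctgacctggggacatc
Myd88: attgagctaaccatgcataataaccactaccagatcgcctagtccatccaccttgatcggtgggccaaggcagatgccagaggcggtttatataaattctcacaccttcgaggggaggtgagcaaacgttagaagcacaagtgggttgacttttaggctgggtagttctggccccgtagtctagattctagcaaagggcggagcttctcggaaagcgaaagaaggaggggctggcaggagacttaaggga
There was a single match in the windows of Tlr13, on the gene's strand, and of Tlr8, on the opposite strand, and these letters are not in the windows of Tlr2 and Myd88. Windows of 7 of the 10 genes were searched, 9 windows in all, of which 4 held the core (those of Tlr8, Tlr9 and Tlr13 and 1 of the 2 of Tlr1). No window was available for Tlr4 and Tlr7, and Cd14 was left out of the search, so the count does not cover these genes. Of 32851 mouse promoter windows of the same length, 23.3% held it on either strand. A match describes letters, not a bound site.

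Obese were compared with lean libraries to ask how transcripts in these libraries of sorted CD4+ T cells differ between obese and lean mice. Transcripts of 5 members, Tlr2, Tlr7, Tlr8, Tlr13 and Cd14, rose in obese libraries, none fell, and Tlr1, Tlr6, Tlr9 and Myd88 did not pass. Tlr7 and Tlr13 stood 2.57-fold and 3.04-fold higher as ratios of mean FPKM in obese over lean libraries, whereas Myd88, the most abundant member, stood at a ratio of 0.893. The test was limma on log2(FPKM + 1), adjusted over the 10788 genes that reached 1 FPKM in 3 or more of the 6 libraries, with a call at a Benjamini-Hochberg (BH) adjusted p under 0.05. Of these genes 6.28% were called, 5.77% as higher and 0.519% as lower. Every obese library lay above every lean one for 8 of the 10 members, 7 of them tested, as for 25.4% of all tested genes, and every obese library lay below for Myd88, as for 6.15%. Log2 differences are obese minus lean on this scale, which understates the change of low genes, and the median over all tested genes was 0.10. Tlr4 was below the filter, so 9 members were tested, and Tlr8 passed it through its obese libraries alone. Without lean 1 or without lean 2, 3 of the members were called (Tlr2, Tlr7 and Tlr13), as 326 and 318 genes were among all tested, against 678 with all 6 libraries.

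**Figure D1:**
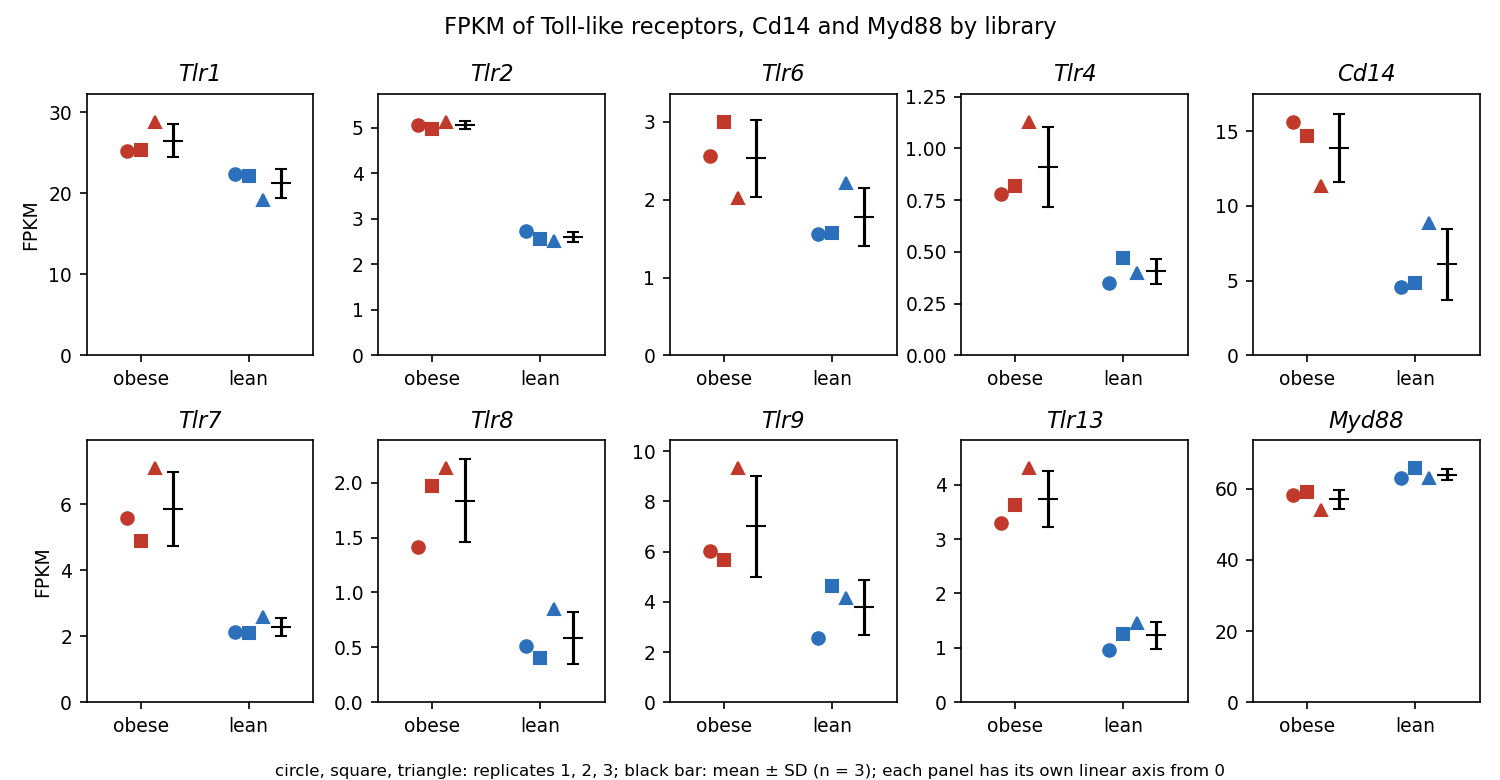
FPKM of each member (vertical axes, linear from 0, each panel with its own range) in the 3 obese libraries (red, left) and the 3 lean libraries (blue, right), with replicates 1, 2 and 3 as circle, square and triangle and the mean ± SD as black bars. Every obese library lies above every lean one for 8 members, the groups of Tlr6 overlap, and Myd88 lies lower in each obese library.

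**Figure D2:**
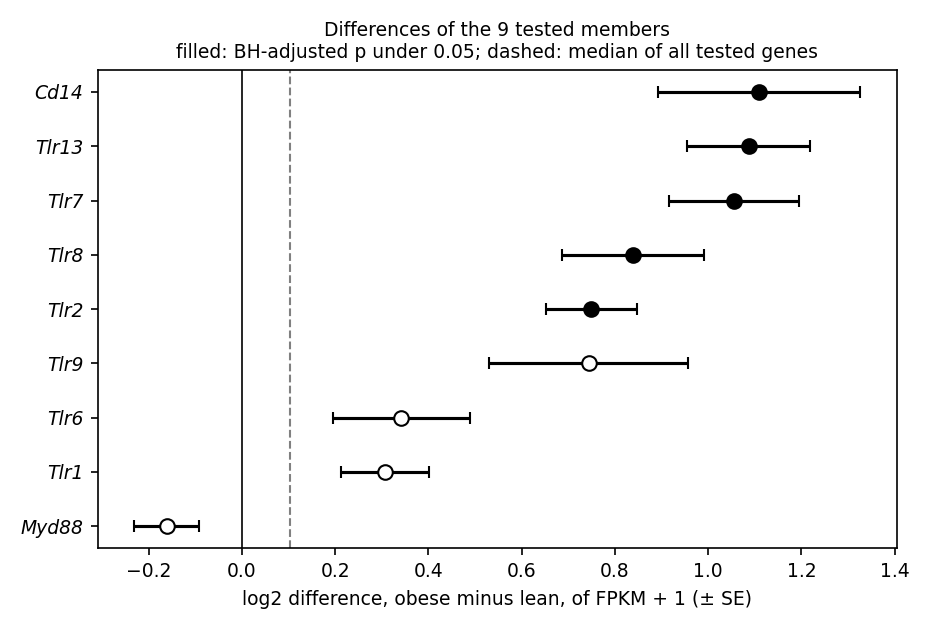
Log2 difference, obese minus lean, of FPKM + 1 (horizontal axis, points ± SE) for the 9 tested members, with filled points for a BH-adjusted p under 0.05 and a dashed line at 0.10, the median of all tested genes. The 5 filled points lie between 0.75 and 1.11, and Myd88 at −0.16.

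Among the surface receptors, Tlr2, the subunit shared by both lipopeptide receptors, rose with little spread within either group. Tlr2 (gene 24088, chromosome 3, 83836272 to 83841824, GRCm38) stood at 5.06, 4.97 and 5.14 FPKM in obese libraries 1 to 3, against 2.74, 2.55 and 2.52 FPKM in lean libraries 1 to 3. The libraries of each group lay close together and far from the other group. Its means were 5.06 ± 0.0851 and 2.60 ± 0.119 FPKM (obese and lean, SD, n = 3 each), 0.75 ± 0.10 apart on the log2 scale (SE; BH-adjusted p = 0.00311).

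Tlr1 and Tlr6, the partners of Tlr2, are neighbours on chromosome 5 with 19491 bases between them. Tlr1 (gene 21897, 64924680 to 64933600) was the most abundant receptor, with 25.25, 25.38 and 28.86 FPKM in obese and 22.35, 22.19 and 19.19 FPKM in lean libraries. Each obese library was above each lean one, but 0.31 ± 0.09 (SE) on the log2 scale did not pass (BH-adjusted p = 0.0906). Tlr6 (gene 21899, 64953092 to 64970942) had 2.56, 3 and 2.02 FPKM in obese and 1.56, 1.57 and 2.21 FPKM in lean libraries. Here obese 3 lay below lean 3, and the log2 difference of 0.34 ± 0.15 did not pass (BH-adjusted p = 0.185). Reads may be shared between the pair: 13.6% of the 50-base windows of the Tlr1 transcripts also occur in those of Tlr6, and 12.3% of those of Tlr6 in Tlr1, while no such window was shared between any other 2 of the 8 receptors. The span of Tlr6 also overlaps that of Fam114a1 by 868 bases, and strandedness is not given in the sources used here.

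The balance of Tlr1 over Tlr2 was lower in each obese library. The ratio of their FPKM was 4.99, 5.11 and 5.62 in obese and 8.16, 8.70 and 7.62 in lean libraries (exact permutation test, 2-sided p = 0.1, the smallest that 3 against 3 libraries allow). For Tlr1 over Tlr6 the groups overlapped, at 8.46 to 14.29 in obese and 8.68 to 14.33 in lean libraries (exact permutation test, 2-sided p = 0.6).

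Tlr4, the lipopolysaccharide receptor, was the scarcest member. It stood (gene 21898, chromosome 4, 66827551 to 66846581) at 0.78, 0.82 and 1.13 FPKM in obese and 0.35, 0.47 and 0.40 FPKM in lean libraries. All obese values lay above all lean values, with a ratio of means of 2.24, but with 1 library at or above 1 FPKM the gene was not tested. When every gene above 0 was tested, its log2 difference of 0.44 ± 0.08 (SE) did not pass (BH-adjusted p = 0.0560), where 1.98% of 17392 genes were called as higher.

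Cd14, which hands lipopolysaccharide to the Tlr4 complex, rose with a wide spread within each group. Cd14 (gene 12475, chromosome 18, 36725064 to 36726815) stood at 15.64, 14.66 and 11.33 FPKM in obese and 4.58, 4.83 and 8.84 FPKM in lean libraries. The groups did not overlap, but replicate 3 was the lowest obese and the highest lean library. The log2 difference was 1.11 ± 0.22 (SE; BH-adjusted p = 0.0214), against 1.09 for Tlr13, while with a pseudocount of 0.1 it was 1.23, below the 1.54 of Tlr13, 1.53 of Tlr8 and 1.31 of Tlr7. It did not pass without obese 1 (BH-adjusted p = 0.0605), lean 1 (0.0731) or lean 2 (0.0835), nor after quantile normalization (0.0528) or with no filter (0.0743). The ratio of Cd14 to Tlr4 lay between 10.03 and 20.05 in obese and between 10.28 and 22.1 in lean libraries (exact permutation test, 2-sided p = 1).

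All 4 endosomal receptors had higher FPKM in each obese than in each lean library, as did 25.4% of all tested genes. Of these receptors 3 passed, where 5.77% of all tested genes were called as higher. Tlr8, 1 of the 3, was tested only through its obese libraries. The summed FPKM of the 4 endosomal receptors was 16.32, 16.14 and 22.82 in obese and 6.17, 8.40 and 9.04 in lean libraries. The summed FPKM of the 4 surface receptors was 33.65, 34.17 and 37.15 in obese and 27.00, 26.78 and 24.32 in lean libraries, most of it from Tlr1. As ratios of means these were 2.34 for the endosomal and 1.34 for the surface receptors, a description of sums with no test.

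Tlr7 (gene 170743, chromosome X, 167303380 to 167330574), a receptor for single-stranded RNA, stood at 5.58, 4.88 and 7.08 FPKM in obese and 2.14, 2.10 and 2.58 FPKM in lean libraries. The lowest obese library was well above the highest lean one. The log2 difference was 1.06 ± 0.14 (SE; BH-adjusted p = 0.00334). Tlr8 (gene 170744, chromosome X, 167241123 to 167264329), its neighbour at a distance of 39050 bases, stood at 1.41, 1.97 and 2.13 FPKM in obese and 0.51, 0.40 and 0.85 FPKM in lean libraries. No lean library reached 1 FPKM. The log2 difference of 0.84 ± 0.15 (SE) passed (BH-adjusted p = 0.0157), but not without lean 1 (0.0626) or lean 2 (0.0674). Tlr7 exceeded Tlr8 in every library, by 2.48 to 3.96 times in obese and 3.04 to 5.25 times in lean libraries, ranges that overlap (exact permutation test, 2-sided p = 0.4).

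Tlr13 (gene 279572, chromosome X, 106143275 to 106160493), the receptor for bacterial ribosomal RNA, had the smallest adjusted p of the members. It stood at 3.29, 3.62 and 4.30 FPKM in obese and 0.97, 1.26 and 1.46 FPKM in lean libraries. The log2 difference was 1.09 ± 0.13 (SE; BH-adjusted p = 0.00234), and 1.54 with a pseudocount of 0.1 in place of 1. With that pseudocount the log2 differences of the tested receptors with a mean under 3 FPKM in both groups, which Tlr13 exceeded in obese libraries, were 1.53 for Tlr8 and 0.48 for Tlr6.

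Tlr9 (gene 81897, chromosome 9, 106222598 to 106226876), the receptor for CpG DNA, stood at 6.04, 5.67 and 9.31 FPKM in obese and 2.55, 4.64 and 4.15 FPKM in lean libraries. The groups did not overlap, but the spread within them was wide, and the log2 difference of 0.74 ± 0.21 (SE) did not pass (BH-adjusted p = 0.0780). Its highest library in each group, obese 3 and lean 2, was also the one with the highest summed B cell markers, at 1099 FPKM in obese 3 and 575.7 and 623.4 FPKM in obese 1 and 2, and at 861.7 FPKM in lean 2 and 451.0 and 400.5 FPKM in lean 1 and 3. Between the remaining libraries of each group the B cell sums ran opposite to Tlr9. Summed plasma cell markers were also highest in obese 3 (1393 FPKM) and lean 2 (562.6 FPKM). So were the sums of the monocyte and macrophage markers (2189 and 1128 FPKM) and of the cytotoxic T cell markers (79.6 and 74.71 FPKM). A link of Tlr9 to any of these lists was not tested.

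Myd88 (gene 17874, chromosome 9, 119335934 to 119340018), the shared adaptor, was the most abundant member in every library. It stood at 58.14, 58.96 and 54.03 FPKM in obese and 63.08, 65.67 and 62.90 FPKM in lean libraries. Each obese library lay below each lean one, by −0.16 ± 0.07 (SE) on the log2 scale, which did not pass (BH-adjusted p = 0.187), and by −0.31 after median-of-ratios scaling (BH-adjusted p = 0.0802). Over all 9 tested members the groups were separate for 8, in either direction, against 31.5% of all tested genes.

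The order of levels was similar at the top and differed below it. In obese libraries the order by mean FPKM was Myd88, Tlr1, Cd14, Tlr9, Tlr7, Tlr2, Tlr13, Tlr6, Tlr8 and Tlr4, where Tlr9 and Tlr7, Tlr7 and Tlr2, and Tlr6 and Tlr8 had overlapping ranges. In lean libraries it was Myd88, Tlr1, Cd14, Tlr9, Tlr2, Tlr7, Tlr6, Tlr13, Tlr8 and Tlr4, and from Cd14 to Tlr6 each neighbour overlapped the next, as did Tlr8 and Tlr4. Tlr13 stood above Tlr6 in every obese library and below it in every lean library.

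Set beside the 20 monocyte and macrophage markers of the same library, 6 of the 10 members lay lower in each obese library than in each lean one (5 of the 9 tested), as did 96.6% of all tested genes. Relative to other marker lists the members stood differently: every obese library was above every lean one for 9 of 10 (8 of the 9 tested) against the T cell markers, as for 25.6% of all tested genes, and for 9 of 10 (8 of the 9 tested) against the neutrophil markers, as for 89.4%. Against the plasmacytoid dendritic cell markers this held for 7 of 10 (6 of the 9 tested), as for 16.0% of all tested genes, and against the dendritic cell markers for 5 of 10 (all tested), as for 7.67%, with Myd88 below. Against the B cell markers all 10 overlapped, and 0.779% of all tested genes had every obese library above every lean one. The mean log2(FPKM + 1) of the monocyte and macrophage markers was 5.57, 5.33 and 5.33 in obese and 3.98, 4.03 and 4.16 in lean libraries. Relative to that mean, Tlr7 lay at −2.85, −2.78 and −2.31 in obese and −2.33, −2.40 and −2.32 in lean libraries on the log2 scale, and Tlr13, Tlr9 and Cd14 also had overlapping groups. Myd88 stood 0.32 to 0.58 above the marker mean in obese and 1.84 to 2.03 above it in lean libraries, and Tlr1, Tlr2, Tlr4, Tlr6 and Tlr8 likewise lay lower in each obese library relative to the markers. The markers had a median log2 difference of 1.47 and a median ratio of group means of 2.90, against ratios of means of 3.13 for Tlr8, 3.04 for Tlr13, 2.57 for Tlr7, 2.28 for Cd14, 2.24 for Tlr4, 1.94 for Tlr2, 1.85 for Tlr9, 1.42 for Tlr6, 1.25 for Tlr1 and 0.893 for Myd88. Neutrophils also carry Tlr2, Tlr4 and Cd14. Of 14 neutrophil markers 7 fell and 7 did not pass, with a median log2 difference of −1.31 and a range from −1.92 to 0.17. The highest were the receptors Csf3r (0.17) and Cxcr2 (0.10), whose groups overlapped. The part of neutrophils in the members' differences was not tested.

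**Figure D3:**
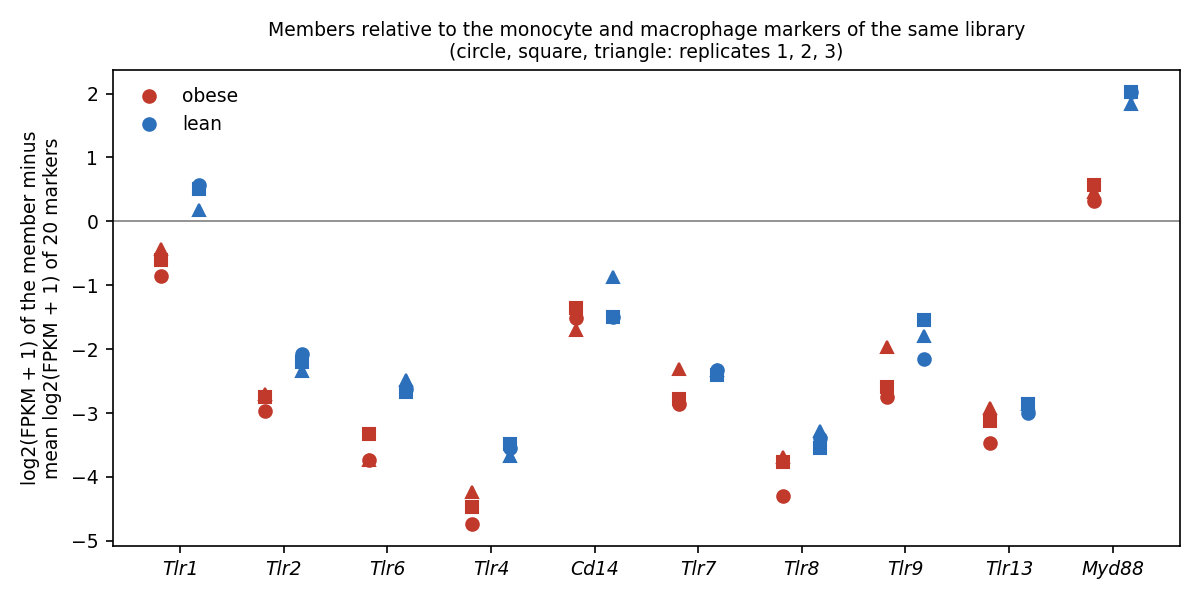
Log2(FPKM + 1) of each member minus the mean log2(FPKM + 1) of the 20 monocyte and macrophage markers in the same library (vertical axis), with obese libraries in red at the left and lean libraries in blue at the right of each gene and replicates 1, 2 and 3 as circle, square and triangle. The groups overlap for Cd14, Tlr7, Tlr9 and Tlr13, and Myd88 has the widest gap, 0.32 to 0.58 in obese and 1.84 to 2.03 in lean libraries.

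Of the 4 Toll-like receptor genes outside the chosen 10, 1 was tested. Tlr12, which in mice senses profilin of protozoa, stood at 4.73, 4.55 and 3.46 FPKM in obese and 4.82, 6.12 and 4.61 FPKM in lean libraries and did not pass (log2 difference −0.24; BH-adjusted p = 0.312). It was the only Toll-like receptor gene tested with a negative difference. Tlr3 (0.42 to 0.69 FPKM in obese, 0.27 to 0.43 in lean), Tlr5 (0.16 to 0.17 in obese, 0.03 to 0.11 in lean) and Tlr11 (0.44 to 0.67 in obese, 0.30 to 0.44 in lean) were below the filter.

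Around the receptors, 4 of 12 genes for co-receptors and chaperones and 6 of 12 for endolysosomal proteins rose, as did 1 of 22 for adaptors, kinases and ligases; the differences between these lists were not tested. Over all pathway lists, 14 of 92 tested genes rose and none fell, which is 15.2% against 5.77% called as higher among all tested genes, and without lean 1 the count was 9. The co-receptor and chaperone genes had a median log2 difference of 0.41, against 0.10 over all tested genes. Cd36, a scavenger receptor that assists Tlr2 with Tlr6, stood at 12.45, 5.94 and 14.58 FPKM in obese and 1.98, 2.02 and 2.27 FPKM in lean libraries (log2 difference 1.88 ± 0.26, SE; BH-adjusted p = 0.00448). Its lowest obese library, obese 2, was still well above all lean ones. Unc93b1, which carries endosomal receptors out of the endoplasmic reticulum, stood at 88.94, 90.44 and 105.87 FPKM in obese and 55.06, 71.67 and 45.89 FPKM in lean libraries (log2 difference 0.73; BH-adjusted p = 0.0246). Ly96, the MD-2 subunit of the Tlr4 complex, and Ly86, the MD-1 partner of Cd180, rose by 0.67 and 0.79 on the log2 scale (BH-adjusted p = 0.0316 and 0.0388). After median-of-ratios scaling Unc93b1, Ly96 and Ly86 did not pass (BH-adjusted p = 0.0630, 0.0603 and 0.0623), nor did they with no filter, which left Cd36 as the single call of the list in both settings, and Ly96 and Ly86 did not pass after quantile normalization (0.155 and 0.0712). With 1 library left out, Ly96 did not pass without obese 1, obese 2, lean 2 or lean 3 (BH-adjusted p = 0.0590 to 0.111), Ly86 without obese 3, lean 1 or lean 3 (0.0601 to 0.117) and Unc93b1 without obese 3 or lean 1 (0.0686 and 0.0823).

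Of 12 tested endolysosomal enzymes and transporters, 6 rose and none fell (median log2 difference 0.46). Ctsb, a cathepsin, stood at 737.92, 665.6 and 682.15 FPKM in obese and 374.25, 377.81 and 360.81 FPKM in lean libraries (log2 difference 0.90 ± 0.07, SE; BH-adjusted p = 4.79e-04). Lgmn, an asparagine endopeptidase that cleaves endosomal receptors, rose by 1.02 ± 0.09 (SE; BH-adjusted p = 5.53e-04). Slc15a3, a lysosomal peptide and histidine transporter, Ctss, another cathepsin, and Dnase2a, the lysosomal DNase, rose by 0.89, 0.52 and 0.72. The sixth was Pld4, an exonuclease that degrades receptor ligands, singled out with its values known. Its log2 difference of 0.71 passed narrowly (limma, BH-adjusted p = 0.04875). The list had 4 to 8 calls over the other settings and 5 to 6 with 1 library left out. Dnase2a did not pass without obese 1 (BH-adjusted p = 0.0613) or lean 2 (0.0530), nor after quantile normalization (0.0715) or with no filter (0.0617).

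Downstream, 1 of 22 tested adaptors, kinases and ubiquitin ligases rose, where 5.77% of all tested genes were called as higher. The count was 0 with no filter, after median-of-ratios scaling and after quantile normalization, and 4 with the replicate number as a block. The median log2 difference of the list was 0.20, and 9 of its genes had an unadjusted p under 0.05 in limma. The share of all tested genes at that unadjusted p is not given here. The gene that rose was Pik3ap1, an adaptor that links the receptors to phosphoinositide 3-kinase, with 21.1 ± 3.36 FPKM in obese and 13.5 ± 2.0 FPKM in lean libraries (SD, n = 3 each). It rose by 0.61 on the log2 scale (limma, BH-adjusted p = 0.0353). Without obese 1, obese 3, lean 1 or lean 3 it missed the threshold (BH-adjusted p up to 0.114). The same held after median-of-ratios scaling (0.0766), after quantile normalization and with no filter (up to 0.0861 over these settings). No gene of 13 transcription factors passed in the limma test, and 4 had an unadjusted p under 0.05 (median log2 difference 0.09). Irf1, an interferon regulatory factor, was lower in each obese library and had a log2 difference of −0.25 (BH-adjusted p = 0.0615), which passed after median-of-ratios scaling (0.0248). Nfkb2, an NF-kB subunit, had 0.24 (BH-adjusted p = 0.105).

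Each pathway list that follows had 1 call with all 6 libraries, where 5.77% of all tested genes were called as higher. Of 13 tested negative regulators, 1 rose (median log2 difference 0.12), the kinase Lyn, with 45.2 ± 8.5 FPKM in obese and 26.5 ± 2.01 FPKM in lean libraries (SD, n = 3 each). Its rise by 0.73 on the log2 scale passed (limma, BH-adjusted p = 0.0130), but not without lean 1 (0.0557). Of 25 genes that the pathway can induce in myeloid cells, 13 were tested and 1 rose, with 2 called without obese 2 (median log2 difference 0.22). Cd86, a costimulatory ligand of antigen-presenting cells, stood at 13.61, 12.01 and 13.98 FPKM in obese and 5.45, 5.44 and 7.34 FPKM in lean libraries (log2 difference 1.01 ± 0.13, SE; BH-adjusted p = 0.00264). Among the 6 tested receptors of the interleukin-1 family, which share Myd88, the decoy receptor Il1r2 rose, with 11.76, 10.82 and 15.14 FPKM in obese and 6.98, 4.93 and 5.57 FPKM in lean libraries (log2 difference 0.99 ± 0.15, SE; BH-adjusted p = 0.00712). The other tested members of that list did not pass (median of the list 0.21). Beside these rises stand the macrophage markers, 18 of 20 higher, and the part of macrophages in them was not tested.

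**Figure D4:**
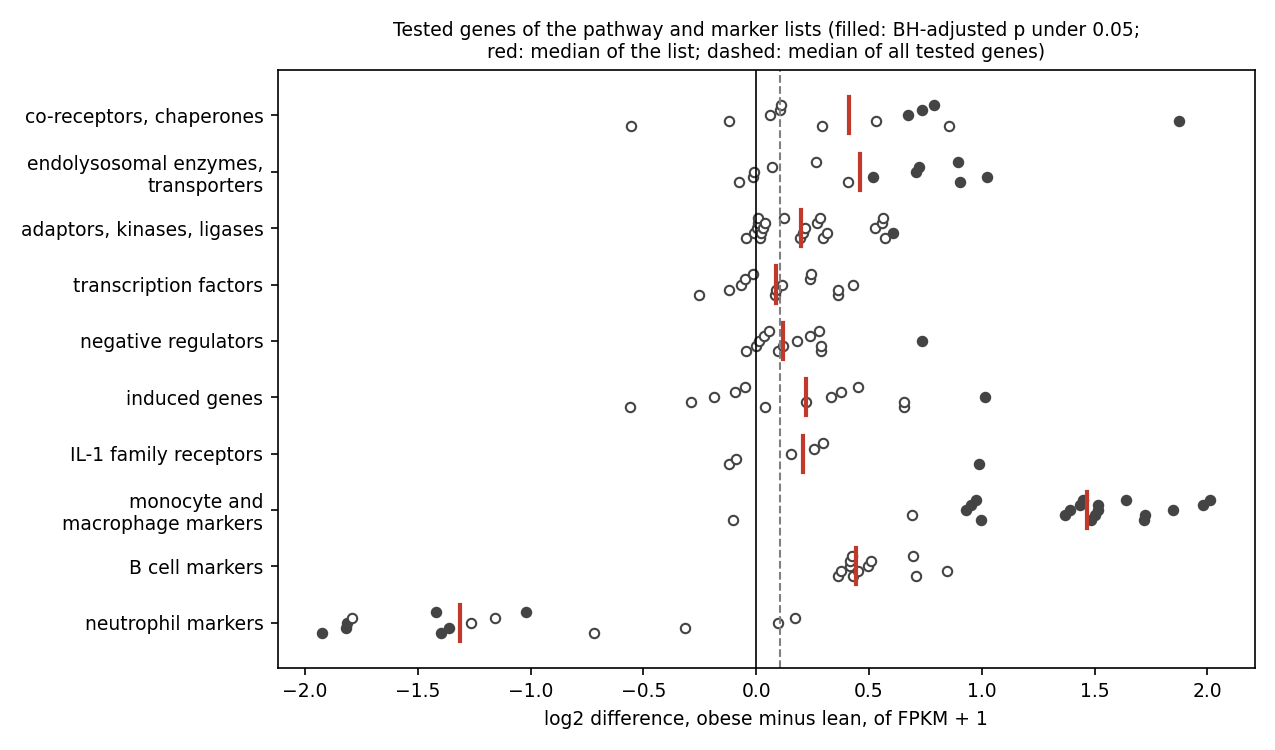
Log2 difference, obese minus lean, of FPKM + 1 (horizontal axis) for each tested gene of 7 pathway lists and 3 marker lists (rows), filled where the BH-adjusted p was under 0.05, with the list's median in red and the median of all tested genes, 0.10, as a dashed line. The filled points of the pathway lists lie mostly in the rows of co-receptors (4 of 12) and endolysosomal genes (6 of 12), while 18 of 20 macrophage markers are filled.

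Genes whose log2(FPKM + 1) profile over the 6 libraries, centred on its mean, lay at the smallest root-mean-square distance from each member that rose were found among all tested genes. They were Gpd1, Cpq and Oas1a for Tlr2 (distance 0.05 each), Slc22a23, Igsf6 and Ifi204 for Tlr7 (0.05 to 0.08) and Zeb2, Rnd3 and Asph for Tlr8 (0.07 to 0.10). For Tlr13 they were Rassf4, Cadm1 and Marcks (0.07 to 0.08). Cd14 had no neighbour as close, with Vstm4, Akr1b7 and Epb41l3 at 0.18 to 0.20. All 15 of these genes were higher in obese libraries, with log2 differences of 0.67 to 1.28, a direction that the choice by likeness fixes.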

How the data were processed

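RNA from 6 libraries of sorted splenic CD4+ T cells (3 obese, 3 lean) was sequenced (HiSeq, per the labels' protocols). FPKM values, with 2 decimals, were deposited by the authors in a table per library that pairs a gene number with a symbol. Bowtie and RSEM and the builds GRCm38 and mm10 are named per the submitters' processing notes; for their versions, and for annotation, filters and strandedness, the sources used here give nothing. FPKM is relative to all mapped fragments, so abundant transcripts lower the values of the rest. Low values did not resolve into whole fragments (best step score 0.247 to 0.371, against 0.910 to 0.921 for simulated whole fragments), so no count test was run. The labels do not say that the libraries came from separate mice, and the p-values cover only the spread between libraries.

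Groups follow the labels. Values were taken as log2(FPKM + 1), genes reaching 1 FPKM in 3 or more of 6 libraries were kept, and obese minus lean was tested with limma 3.58.1 in R 4.3.3 (intensity trend, 2-sided, group as the sole term, Benjamini-Hochberg adjustment over 10788 genes, called under 0.05). On simulated data (10788 genes, 200 changed, 10 runs) 45.1% of changes of 0.5 and 90.3% of changes of 1 (log2) were recovered, with 3.86% of calls false. Positions are from RefSeq's table of GRCm38.p6, in which 21633 gene numbers were found. The labels do not say whether replicate numbers pair the libraries, and the numbers were not taken as pairs (see the closing section).

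The 10 genes and all lists were chosen with earlier results of these data known, so their direction is no independent support. Named genes were all 10, the other Toll-like receptors, up to 5 called genes of each pathway list by smallest p (2 where none was called), the 2 most abundant of each marker list (given where a result turns on them), Cd4, Cd3e and the 3 nearest profiles of each member that rose. Alternatives were a pseudocount of 0.1, no filter, a filter of 5 FPKM, median-of-ratios, quantile and TPM scaling, no trend, the replicate number as a block and each library left out.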

Additional observations from a re-analysis of the deposited data

How the results depend on the processing

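Tlr2, Tlr7 and Tlr13 passed in each alternative in which they were tested; none of the 3 was tested with the filter of 5 FPKM. Calls among all genes numbered 368 with no filter (344 higher, 24 lower), 352 with the filter of 5 FPKM (316 and 36), 434 after quantile normalization (322 and 112), and 318 to 698 with 1 library left out (299 to 601 higher, 19 to 97 lower). Lower calls numbered 173 after median-of-ratios scaling and 149 with the replicate block. With that block 1015 genes were called, 866 of them higher. Median-of-ratios scaling moved the median over all tested genes to −0.03, against 0.10 on the log2 scale. Called members numbered 1 with the filter of 5 FPKM, which left fewer of them tested, and 3 to 5 with 1 library left out. Called pathway genes numbered 8 with no filter, 9 after quantile normalization and 9 to 14 with 1 library left out; with the replicate block they numbered 20. The log2 difference of Cd14 was 1.11 with no filter and 0.93 after quantile normalization, neither past the threshold, and 0.96 to 1.37 with 1 library left out; that of Tlr8 was 0.75 to 0.96. Same-numbered obese and lean libraries deviated from their group means with correlations across genes of 0.03, 0.06 and 0.19. For libraries of different numbers the correlations lay between −0.17 and 0.16. These values cannot settle whether the numbers pair the libraries, and the numbers were not taken as pairs. With the replicate block Tlr9 passed at an unchanged log2 difference of 0.74 (limma, BH-adjusted p = 0.0484), and 6 members were called. The cause of these changes was not tested.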
